A study of Mus musculus with 24 samples.

Results

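The E proteins and the Id proteins that inhibit them were described across sorted mouse bone marrow progenitors in which the transcription factor gene Tal1 was intact or deleted. The 6 genes listed were Tcf3, Tcf4, Tcf12, Id1, Id2 and Id3, and members were taken as the rows of the table of normalised counts whose Ensembl identifier maps to one of these symbols. Rows were found for 4 of the 6 (Tcf3, Tcf4, Tcf12 and Id2) among 17149 genes in the table. Id1 and Id3 are not analysed here. All 4 passed the filter on low values, which kept 16215 genes.

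E proteins are basic helix-loop-helix transcription factors that bind DNA as dimers at E-boxes and drive genes of B and T lymphocyte development. Tcf3 encodes the E2A proteins, Tcf12 encodes HEB, and Tcf4 encodes an E protein best known for its role in plasmacytoid dendritic cells. Id proteins have the helix-loop-helix but lack the DNA-binding region, so an E protein paired with one cannot bind DNA; Id2 is known for its role in innate lymphoid and natural killer cells. TAL1 also pairs with E proteins, and the pair acts with LMO2, LDB1 and GATA factors in stem, erythroid and mast cells.

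RNA had been sequenced from 24 libraries in 8 groups of n = 3. Control libraries (Ctrl) carried floxed but intact Tal1 (Tal1 F/F, which the labels call wild type) and the knockout libraries (KO) carried VaviCre with Tal1 F/F; all groups shared the Rag2GFP reporter. Vav-driven Cre acts across blood cells, so deletion was not limited to progenitors. Cells were bone marrow LSK cells (the compartment of stem cells and multipotent progenitors), named HSC where negative for CD135 and LMPP (lymphoid-primed multipotent progenitors) where positive, and each was sorted into a GFP-negative and a GFP-positive population. Age and sex, the number of animals behind a library, and the exons that the floxed allele removes are not given in the sources used here. Each of 6 description numbers was shared by 4 libraries of 1 genotype, and the labels do not say that a number is an animal, so the spread behind each p-value is that between these libraries and may be technical in part.

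Library totals were between 6906083 and 11969093 normalised counts, and depth in reads is unknown. Ctrl HSC GFP-positive replicate 2 had 11982 genes above 1 normalised count and KO LMPP GFP-positive replicate 3 had 11684, against 13583 to 15957 in the other 22 libraries; both are referred to as libraries of low detection. The labels were checked on Tal1, Rag2, Kit, Ly6a and Flt3. Within each of the 4 populations every KO library was below every Ctrl library for Tal1, whose mean was 245 in KO and 895 in Ctrl normalised counts (log2 difference -2.12, SE 0.35, adjusted p = 0.00222 in limma, averaged over the populations). Rag2 ranged from 4.99 to 167 in GFP-negative and from 316 to 2593 in GFP-positive libraries. Kit, a marker of the sort, was between 2327 and 8066 in all libraries, and Ly6a, which encodes Sca-1, had group means between 96.4 and 1385. Flt3, which encodes CD135, was not absent from the CD135-negative HSC libraries (177 to 3256), although every LMPP library was higher (3623 to 8621). In bulk RNA, fewer cells of a type and less RNA per cell cannot be told apart.

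The E-box, written CANNTG, is the sequence that E protein dimers bind and that Id proteins keep them from. The stretches upstream of the starts of Tcf3, Tcf12 and Id2 are shown because each holds one. The 250 bases before the start are from RefSeq on GRCm38.p6, and capitals mark E-boxes. Promoters were held for Tcf3 (1 start), Tcf12 (3 starts) and Id2 (1 start). The Tcf3 stretch is chr10:80433636-80433885, the stretch of the first Tcf12 start is chr9:72111820-72112069 and the Id2 stretch is chr12:25096093-25096342, all on the minus strand.
Id2: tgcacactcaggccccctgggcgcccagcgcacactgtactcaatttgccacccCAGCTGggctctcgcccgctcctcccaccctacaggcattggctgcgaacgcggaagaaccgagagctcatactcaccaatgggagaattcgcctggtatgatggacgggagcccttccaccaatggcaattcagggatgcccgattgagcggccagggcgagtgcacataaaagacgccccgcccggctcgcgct
Tcf12: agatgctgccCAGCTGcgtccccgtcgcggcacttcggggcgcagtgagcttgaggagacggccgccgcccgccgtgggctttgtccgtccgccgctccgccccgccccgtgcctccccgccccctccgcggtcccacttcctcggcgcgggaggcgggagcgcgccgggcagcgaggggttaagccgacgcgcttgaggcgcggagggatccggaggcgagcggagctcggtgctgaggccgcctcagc
Tcf3: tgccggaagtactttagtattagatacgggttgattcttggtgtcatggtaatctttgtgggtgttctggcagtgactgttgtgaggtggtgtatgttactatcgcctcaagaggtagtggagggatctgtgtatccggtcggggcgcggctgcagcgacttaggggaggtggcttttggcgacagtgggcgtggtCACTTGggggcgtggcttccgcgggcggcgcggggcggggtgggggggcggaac
Id2 and Tcf12 both hold the palindrome CAGCTG, 196 bases before the start in Id2 and 240 bases before in Tcf12, and Tcf3 holds CACTTG 54 bases before its start. Over the full windows, which also take in the 50 bases after the start, the second Tcf12 start held 2 E-boxes (CAAGTG 149 bases before and CACTTG 18 bases after) and the third held 1 (CATGTG 5 bases before). Searched on both strands in 32851 windows of the same 300 bases, CANNTG was in 72.3%, CAGCTG in 16.3%, CAGGTG (whose complement is CACCTG) in 20.2% and CAGATG (complement CATCTG) in 17.2%; each of the last 3 is also a CANNTG. A match describes the letters only. Tcf3 spans chr10:80409514-80433647, Tcf12 spans chr9:71842688-72111871 and Id2 spans chr12:25093799-25097140 on the minus strand of GRCm38 in GENCODE M21, so the Id2 stretch lies inside the gene as GENCODE draws it, before the RefSeq start.

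In normalised counts, which are not divided by length, the 3 E protein genes were abundant and Id2 was scarce. Mean normalised counts over the 24 libraries were 1667 for Tcf4 (ENSMUSG00000053477), 895 for Tcf12 (ENSMUSG00000032228), 859 for Tcf3 (ENSMUSG00000020167) and 37.7 for Id2 (ENSMUSG00000020644). Among the genes tested these means stood at the 96.7th, 91.8th, 91.3rd and 32.7th percentile. Id2 was also the least even member: its highest group mean was 26 times its lowest, against 2.98 for Tcf4, 2.16 for Tcf3 and 1.89 for Tcf12. With 1 library left out the Id2 ratio ranged from 18.7 to 91.9, the latter without Ctrl HSC GFP-negative replicate 1. Because of the missing division by gene length, these levels do not rank the genes by transcripts. Per kilobase of exons merged over all isoforms, Id2 averaged 49.3 in KO HSC GFP-negative cells. Tcf4 was at 34 there, Tcf12 at 54.1 and Tcf3 at 228. In every other group Id2 was below Tcf4 on this scale. Per kilobase of the longest transcript Id2 was 61.1 and Tcf4 109 in KO HSC GFP-negative cells.

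**Figure D1:**
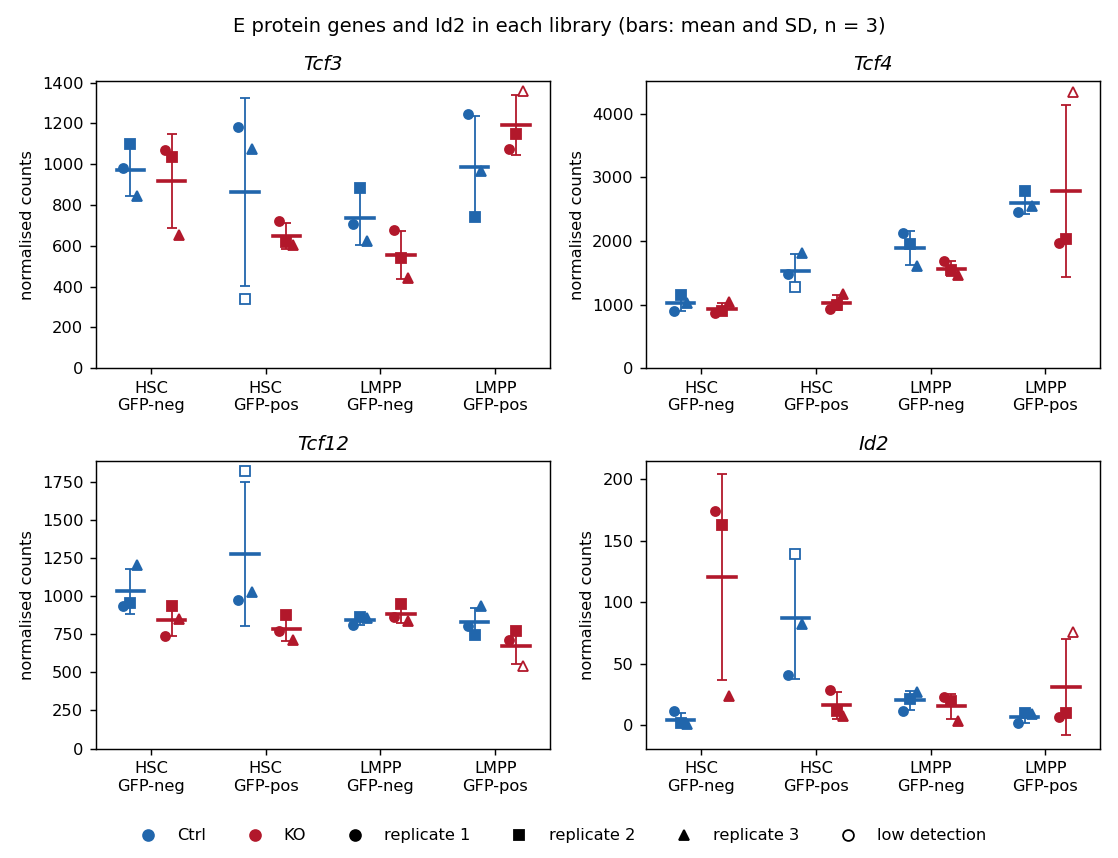
Normalised counts (linear axes from 0 for the E proteins) of Tcf3, Tcf4, Tcf12 and Id2 in each of 24 libraries by population, Ctrl in blue and KO in red, with bars for the mean and SD of n = 3 and open symbols for the 2 libraries of low detection. Tcf4 climbs from HSC GFP-negative (864 to 1145) to LMPP GFP-positive (1972 to 4337), and Id2 is highest in KO HSC GFP-negative and Ctrl HSC GFP-positive cells.

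Per kilobase, the makeup of the E protein pool shifted toward Tcf4 from HSC to LMPP. With exons merged over all isoforms as the length, Tcf4 in Ctrl GFP-negative cells was 10.8% ± 0.952 (SD, n = 3) of the summed per-kilobase level of the 3 genes in HSC and 22.6% ± 2.53 in LMPP. In Ctrl GFP-positive cells the shares were 16.2% ± 2.83 and 24.7% ± 5.31. In KO cells they went from 11.1% ± 3.26 to 22.9% ± 1.54 among GFP-negative and from 15.2% ± 2.5 to 22.3% ± 6.63 among GFP-positive libraries. Tcf3 held the largest share in every group on this scale, with group means between 54.2 and 71.3%. With the longest transcript as the length the Tcf4 share went from 19.4% ± 1.34 to 36.5% ± 3.25 in Ctrl GFP-negative and from 26.4% ± 2.48 to 39.8% ± 6.31 in Ctrl GFP-positive cells, so the level of the share depends on the length chosen and its direction did not. These shares were not tested.

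Tcf4 lies at chr18:69343356-69689079 on the plus strand. It was higher in LMPP than in HSC in all 4 pairs of groups. In Ctrl GFP-negative cells it was 897, 1145 and 1026 normalised counts in HSC and 2117, 1945 and 1602 in LMPP. In KO GFP-negative cells it was 864, 892 and 1040 in HSC and 1686, 1548 and 1462 in LMPP. No LMPP library of these 2 pairs of groups reached down to an HSC library. Among GFP-positive cells the values were 1479, 1274 and 1811 in Ctrl HSC and 2462, 2781 and 2542 in Ctrl LMPP. In KO GFP-positive cells they were 925, 1001 and 1161 in HSC and 1972, 2035 and 4337 in LMPP, the last being a library of low detection. Again the gates did not overlap.

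Averaged over the 4 pairs of groups, Tcf4 rose in LMPP by 0.94 on the log2 scale (SE 0.13, limma adjusted p = 2.91e-05), and 4.18% of all genes passed this comparison. It was the only 1 of the 4 members to pass. All 6 description numbers showed the rise, by 0.56 to 1.19, and the exact two-sided sign-flip test over them gave p = 0.0312, the smallest it can give (0.188 after adjustment over the 12 tests by number). The average rise kept between 0.81 and 0.99 and an adjusted p between 4.85e-07 and 0.000465 under all 33 alternatives run.

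**Figure D2:**
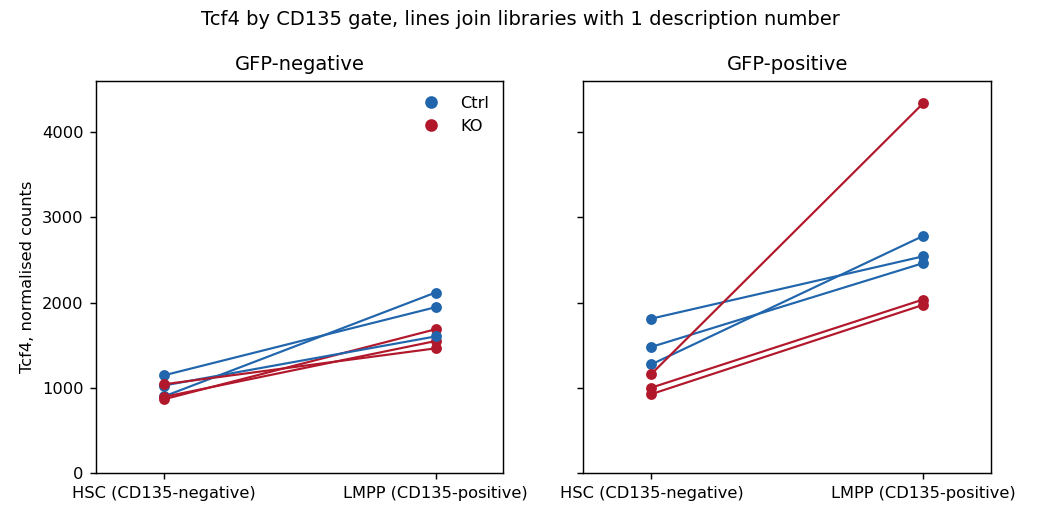
Tcf4 in normalised counts in HSC and LMPP libraries, GFP-negative on the left and GFP-positive on the right, with lines joining libraries of 1 description number, Ctrl in blue and KO in red. All 12 lines rise, and the steepest ends at KO LMPP GFP-positive replicate 3 (4337), a library of low detection.

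By single population the rise passed only in KO GFP-positive cells, at 1.34 (SE 0.25, limma adjusted p = 0.00765), where 0.611% of genes passed. It passed in 13 of 16 alternatives. Without KO LMPP GFP-positive replicate 3 that rise was 0.96 (adjusted p = 0.0401), and without KO HSC GFP-positive replicate 1 or 2 it no longer passed (1.26, adjusted p = 0.0501, and 1.32, adjusted p = 0.0552). Nor did it pass when only the 2 groups compared were fitted (1.34, SE 0.34, adjusted p = 0.435). It was 0.88 in Ctrl GFP-negative cells (adjusted p = 0.238, 0.37% of genes passing), 0.78 in Ctrl GFP-positive cells (0.128, 0.894%) and 0.75 in KO GFP-negative cells (0.239, 0.876%). The difference of the rise between genotypes did not pass, at -0.13 (95% interval -0.87 to 0.60) in GFP-negative and 0.55 (-0.18 to 1.29) in GFP-positive cells. Of all genes 0% and 0.0308% passed those differences in limma, and at an unadjusted p under 0.05 there were 384 and 2030. With both libraries of low detection left out, the rise also passed in Ctrl and KO GFP-negative cells (0.88, adjusted p = 0.00883, and 0.75, adjusted p = 0.0168).

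Tcf4 was also higher in Rag2-GFP-positive cells. The average over 4 pairs of groups rose by 0.47 (SE 0.13, limma adjusted p = 0.0202), in a comparison that 7.23% of genes passed and whose median over all genes was -0.14. Each of the 6 description numbers showed it, by 0.16 to 0.86 (exact sign-flip p = 0.0312, the smallest possible, and 0.188 adjusted over 12 tests). It passed under all 33 alternatives, with values from 0.38 to 0.61 and adjusted p from 0.00461 to 0.0447. No single population passed: the difference was 0.56 in Ctrl HSC (adjusted p = 0.242), 0.47 in Ctrl LMPP (1), 0.14 in KO HSC (0.999) and 0.73 in KO LMPP (0.171). GFP-positive and GFP-negative libraries did not overlap except in KO HSC. With both libraries of low detection left out, the difference in Ctrl HSC passed (0.68, adjusted p = 0.0467).

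In the order of its 8 group means, Tcf4 ran from KO LMPP GFP-positive (2781 ± 1348, SD, n = 3) and Ctrl LMPP GFP-positive (2595 ± 166) through Ctrl LMPP GFP-negative (1888 ± 262), KO LMPP GFP-negative (1565 ± 113) and Ctrl HSC GFP-positive (1521 ± 271) to KO HSC GFP-positive (1029 ± 121), Ctrl HSC GFP-negative (1023 ± 124) and KO HSC GFP-negative (932 ± 94.8). Neighbours in this order overlapped except at 2 steps, between Ctrl LMPP GFP-positive and Ctrl LMPP GFP-negative and between Ctrl HSC GFP-positive and KO HSC GFP-positive. Tal1 deletion left no passing difference: the average was -0.24 (95% interval -0.50 to 0.02, adjusted p = 0.701). The most negative population value, -0.55 (adjusted p = 0.296), came from HSC GFP-positive cells, where KO libraries were all below Ctrl libraries. In LMPP GFP-positive cells it was 0.00 (95% interval -0.52 to 0.52).

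Markers of plasmacytoid dendritic cells, a type in which Tcf4 is a known regulator, were higher in GFP-positive than in GFP-negative libraries of the same gate and genotype, as Tcf4 group means were. The summed level of the 7 of 8 listed markers in the table was 155 to 342 in Ctrl HSC GFP-negative, 832 to 1482 in Ctrl HSC GFP-positive, 459 to 630 in Ctrl LMPP GFP-negative and 1267 to 1984 in Ctrl LMPP GFP-positive libraries. In KO libraries the ranges were 124 to 178, 484 to 623, 192 to 428 and 1306 to 1558. In both genotypes the sum was thus higher in HSC GFP-positive than in LMPP GFP-negative libraries, whereas the Tcf4 mean was lower there. Of the 7 markers tested, 4 rose with GFP, averaged, and 0 fell: Irf8 (2.78, limma adjusted p = 4.75e-06), Cox6a2 (2.90, 1.38e-05), Ly6d (1.37, 0.00468) and Ccr9 (2.06, 0.0231). Of all genes 7.23% passed this comparison, 346 rising and 826 falling. Cox6a2 averaged 4.02 in Ctrl LMPP GFP-negative and 80.7 in Ctrl LMPP GFP-positive cells, and 3.79 and 189 in KO. From HSC to LMPP 3 of the 7 rose, namely Cox6a2 (1.76), Tlr9 (1.51) and Ccr9, where 4.18% of all genes passed, 400 rising and 277 falling. Irf8, which other myeloid and lymphoid cells share, was the largest part of the sum in LMPP GFP-positive cells, at a mean of 1065 in Ctrl and 827 in KO. Siglech, the defining surface marker, was at most 4.31 normalised counts in any HSC library and 2.7 in any LMPP GFP-negative library, and 2.51 to 30.2 in LMPP GFP-positive libraries. The part of such cells in the rises of Tcf4 was not tested.

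Id2 went opposite ways with the reporter in the HSC of the 2 genotypes. In Ctrl HSC it was 11.3, 1.62 and 0.997 normalised counts in GFP-negative and 40.7, 139 and 82.4 in GFP-positive libraries, so every GFP-positive library was higher. In KO HSC it was 174, 163 and 24.1 in GFP-negative and 29, 11.9 and 8.02 in GFP-positive libraries. KO libraries overlapped, since GFP-negative replicate 3 was below GFP-positive replicate 1, although GFP-positive was lower within each description number.

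The rise in Ctrl HSC passed, at 3.42 on the log2 scale (SE 0.86, limma adjusted p = 0.0295), in a comparison that 2.72% of genes passed. It was the only member to do so there, and it passed in 11 of 16 alternatives. The call was lost without Ctrl HSC GFP-negative replicate 2 (3.21, adjusted p = 0.0996) or 3 (3.13, 0.123), or without GFP-positive replicate 2 (3.02, 0.112), the library of low detection; without both libraries of low detection it passed. It was also lost with array weights (2.94, adjusted p = 0.206) and when only the 2 groups compared were fitted (3.42, 0.203). In KO HSC the difference was -2.34 (SE 0.86, adjusted p = 0.536), with 0.376% of genes passing. The difference between the genotypes was -5.77 (SE 1.22, unadjusted p = 7.02e-05, adjusted p = 0.163) and so did not pass over all genes, of which 0.00617% did. Without KO HSC GFP-negative replicate 3 it passed (-6.64, adjusted p = 0.0402). Within description numbers Ctrl shifts were 1.54, 4.64 and 4.08 and KO shifts were -2.43, -3.38 and -1.22.

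**Figure D3:**
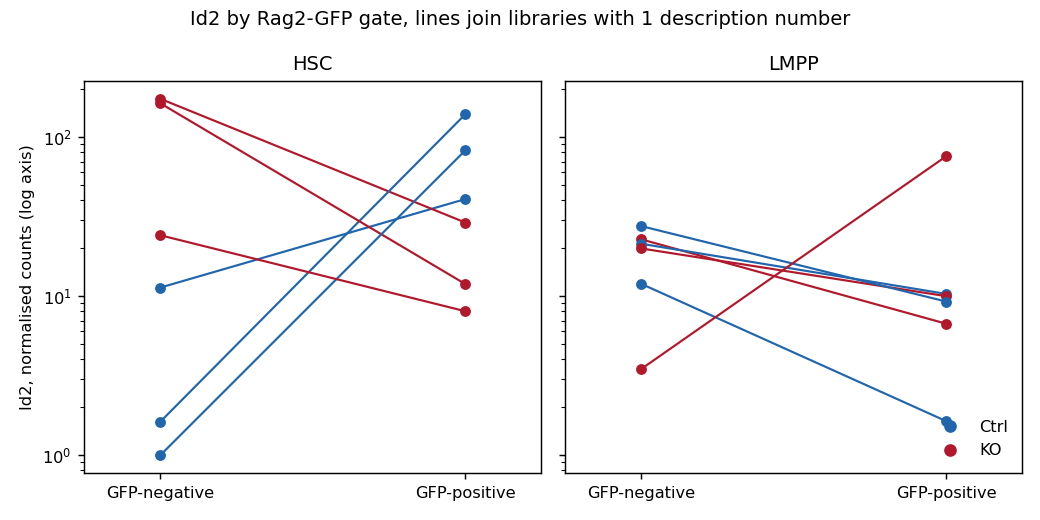
Id2 in normalised counts on a log axis in GFP-negative and GFP-positive libraries, HSC on the left and LMPP on the right, with lines joining libraries of 1 description number, Ctrl in blue and KO in red. In HSC the 3 Ctrl lines rise and the 3 KO lines fall; in LMPP 5 of 6 lines fall, and the 1 that rises ends in a library of low detection (75.8).

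Tal1 deletion was accompanied by higher Id2 in HSC GFP-negative cells, without passing over all genes. KO was 24.1 to 174 against 0.997 to 11.3 in Ctrl, with no overlap, for a difference of 3.62 (SE 0.86, limma adjusted p = 0.0951). Of all genes 0.16% passed this comparison. It passed in 3 of 16 alternatives (adjusted p from 0.00302 to 0.789): with array weights (3.36), without KO replicate 3 (4.49, adjusted p = 0.0218) and without the 2 libraries of low detection, neither of which is in these groups (3.62, adjusted p = 0.0204). The sign was the other way among HSC GFP-positive cells, at -2.15 (SE 0.86, adjusted p = 0.234, 0.432% of genes passing), again with no overlap. In LMPP it was -0.47 in GFP-negative (95% interval -2.24 to 1.30, 0.0555% passing) and 1.16 in GFP-positive cells (-0.61 to 2.93, 0.0432% passing).

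In LMPP Id2 was low in both genotypes. It was 11.9, 21.3 and 27.5 in Ctrl GFP-negative and 1.63, 10.3 and 9.22 in Ctrl GFP-positive libraries, which did not overlap (difference -1.18, SE 0.86, limma adjusted p = 1). In KO it was 22.7, 19.9 and 3.48 in GFP-negative and 6.69, 9.97 and 75.8 in GFP-positive libraries. The KO difference of 0.44 turned to -0.46 without the library at 75.8. Of all genes 0.0555% passed for GFP in Ctrl LMPP and 1.15% in KO LMPP.

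Between LMPP and HSC the Id2 differences had both signs, with no overlap in 3 of the 4 pairs. They were 1.61 in Ctrl GFP-negative (limma adjusted p = 1), -2.99 in Ctrl GFP-positive (0.0853) and -2.48 in KO GFP-negative cells (0.259). In KO GFP-positive cells, where the groups overlapped, it was 0.31 (0.921). The average was -0.89 (SE 0.43, adjusted p = 0.324), with 5 of 6 description numbers lower in LMPP. The exact sign-flip p was 0.0938.

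In the order of its group means, Id2 ran from KO HSC GFP-negative (120 ± 83.5, SD, n = 3) and Ctrl HSC GFP-positive (87.3 ± 49.2) through KO LMPP GFP-positive (30.8 ± 39), Ctrl LMPP GFP-negative (20.2 ± 7.82), KO HSC GFP-positive (16.3 ± 11.2) and KO LMPP GFP-negative (15.4 ± 10.4) to Ctrl LMPP GFP-positive (7.04 ± 4.72) and Ctrl HSC GFP-negative (4.63 ± 5.76). All neighbours overlapped. At its highest, in KO HSC GFP-negative replicate 1, Id2 was 21.9 ppm of the library total, and in 2 Ctrl HSC GFP-negative libraries it was 0.186 and 0.144 ppm; without depth in reads no counting error can be given for them.

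Markers of other cell types also differed between the HSC groups, not always in the direction of Id2. The 5 of 6 mast cell and basophil markers in the table summed to 213 to 410 in Ctrl HSC GFP-negative and 1858 to 7578 in KO HSC GFP-negative libraries, and within the KO group the order of the libraries was the same as for Id2 (7578, 7141 and 1858). They summed to 377 to 1758 in Ctrl HSC GFP-positive and 1455 to 2421 in KO HSC GFP-positive libraries, which overlapped and reached higher in KO, where Id2 was lower (mean 16.3 against 87.3). Cma1, a mast cell protease, averaged 870 in KO HSC GFP-negative cells and 2.8 in Ctrl. The 6 megakaryocyte markers ran in the same library order in KO HSC GFP-negative cells (3227, 2989 and 2050). They summed to 2974 to 4452 in Ctrl HSC GFP-negative libraries, where Id2 was lowest. With 3 libraries such an order is no more than a description. The 8 erythroid markers summed to 910 to 2535 in Ctrl and 2276 to 4598 in KO HSC GFP-negative libraries, which overlapped. Among HSC GFP-positive libraries they summed to 0.253 to 178 in Ctrl and 512 to 1158 in KO, where Id2 was lower. With Tal1 deletion 2 of the 8 rose in HSC GFP-negative cells (Hbb-bs and Hba-a1), where 0.16% of all genes passed. In HSC GFP-positive cells 3 rose, where 0.432% passed. The 5 of 8 natural killer and innate lymphoid markers summed to 715 to 1102 and 1154 to 2202 in Ctrl HSC GFP-negative and GFP-positive libraries and to 1072 to 1362 and 775 to 1632 in KO. Klrb1c, which encodes the NK1.1 antigen, averaged 0.141 in Ctrl HSC GFP-positive and 0.0152 in KO HSC GFP-negative cells. Il2rb, a receptor chain for interleukins 2 and 15, rose with GFP in Ctrl HSC (3.93, limma adjusted p = 0.00862), from a mean of 1.98 to 112. With Tal1 deletion in HSC GFP-positive cells it fell (-3.84, adjusted p = 0.0359), to a mean of 2.37. Il2rb was the only 1 of the 5 tested to pass in these 2 comparisons, which 2.72% and 0.432% of all genes passed. The medians of the 5 were 0.48 against -0.24 over all genes with GFP and 0.04 against 0.19 with Tal1 deletion. T cell markers, 7 of 10 in the table, summed to 12 to 138 in Ctrl HSC GFP-negative libraries and to 611, 3297 and 1137 in the GFP-positive ones, whose order was the same as for Id2 (40.7, 139 and 82.4). In KO HSC they summed to 64.5 to 143 and 220 to 415, so they were higher in GFP-positive libraries of both genotypes. The GFP-positive sums were lower in KO than in Ctrl without overlap, as Id2 was. Of the 6 tested, 3 rose with GFP in Ctrl HSC, where 2.72% of all genes passed: Bcl11b (4.98, limma adjusted p = 2.37e-07), Trbc1 (5.52, 2.17e-05) and Tcf7 (6.21, 0.00111). With Tal1 deletion in HSC GFP-positive cells 1 of the 6 fell, where 0.432% of all genes passed. It was Bcl11b (-4.49, limma adjusted p = 2.17e-06), at a mean of 2.02 in KO and 134 in Ctrl. For the difference of GFP effects between genotypes in HSC 1 of the 6 also fell, where 0.00617% of all genes passed. Granulocyte and monocyte markers, all 8 in the table, summed to 11986 to 31001 and 58654 to 132300 in Ctrl HSC and to 5338 to 7013 and 17302 to 58447 in KO HSC. Among these HSC groups they were thus lowest in KO HSC GFP-negative cells, where Id2 was highest. In Ctrl HSC GFP-positive libraries their order (132300, 58654 and 83488) was the reverse of that of Id2. The part of these cells in the Id2 values was not tested.

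Tcf3 did not pass in any of the 19 comparisons, and its largest differences were in KO cells. It was 677, 539 and 443 normalised counts in KO LMPP GFP-negative and 1073, 1150 and 1357 in KO LMPP GFP-positive libraries, with no overlap. That difference was 1.12 (SE 0.35, limma adjusted p = 0.131), in a comparison where 1.15% of genes passed and the median over all genes was -0.22. It passed with array weights (0.98, adjusted p = 0.00647) and in none of the other 15 alternatives. In Ctrl LMPP the libraries were 705, 886 and 622 and then 1246, 743 and 969, which overlapped (0.40, adjusted p = 1). KO HSC had 1068, 1035 and 655 in GFP-negative and 721, 621 and 602 in GFP-positive libraries (-0.47, adjusted p = 0.999).

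Ctrl HSC gave 980, 1097 and 842 in GFP-negative and 1184, 338 and 1077 in GFP-positive libraries. The library at 338, the lowest Tcf3 value of all, is 1 of the 2 of low detection, and the difference of -0.35 turned to 0.22 without it. Between LMPP and HSC, KO GFP-positive cells were higher without overlap (0.87, adjusted p = 0.352) and KO GFP-negative cells lower (-0.72, adjusted p = 0.617). For Tal1 deletion the average was -0.11 (95% interval -0.47 to 0.25). Group means ran from 1193 ± 147 (SD, n = 3) in KO LMPP GFP-positive to 553 ± 118 in KO LMPP GFP-negative cells, and all neighbours in the order of the 8 groups overlapped.

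Tcf12 was the most even member and passed in none of the 19 comparisons. It was 934, 957 and 1202 in Ctrl HSC GFP-negative and 735, 933 and 852 in KO HSC GFP-negative libraries, and 975, 1820 and 1029 in Ctrl HSC GFP-positive and 769, 876 and 714 in KO HSC GFP-positive libraries. KO was below Ctrl without overlap in both, although by 933 against 934 at the closest in GFP-negative cells, with limma differences of -0.29 (adjusted p = 1) and -0.64 (SE 0.25, adjusted p = 0.23). The value of 1820 came from the library of low detection. In LMPP, Ctrl was 809, 860 and 853 in GFP-negative and 802, 747 and 932 in GFP-positive libraries, and KO was 865, 947 and 836 and then 714, 773 and 538. KO and Ctrl overlapped there.

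Averaged over populations the Tcf12 difference for Tal1 deletion was -0.29 (SE 0.13, unadjusted p = 0.0305, limma adjusted p = 0.572), where 0.469% of genes passed and no member did. By description number the exact permutation test of 3 against 3 gave p = 0.2, and the smallest it allows is 0.1. The average difference between LMPP and HSC was -0.25 (adjusted p = 0.351). Ctrl HSC GFP-positive cells had the highest mean (1275 ± 473, SD, n = 3) and KO LMPP GFP-positive cells the lowest (675 ± 122), with every neighbour overlapping.

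**Figure D4:**
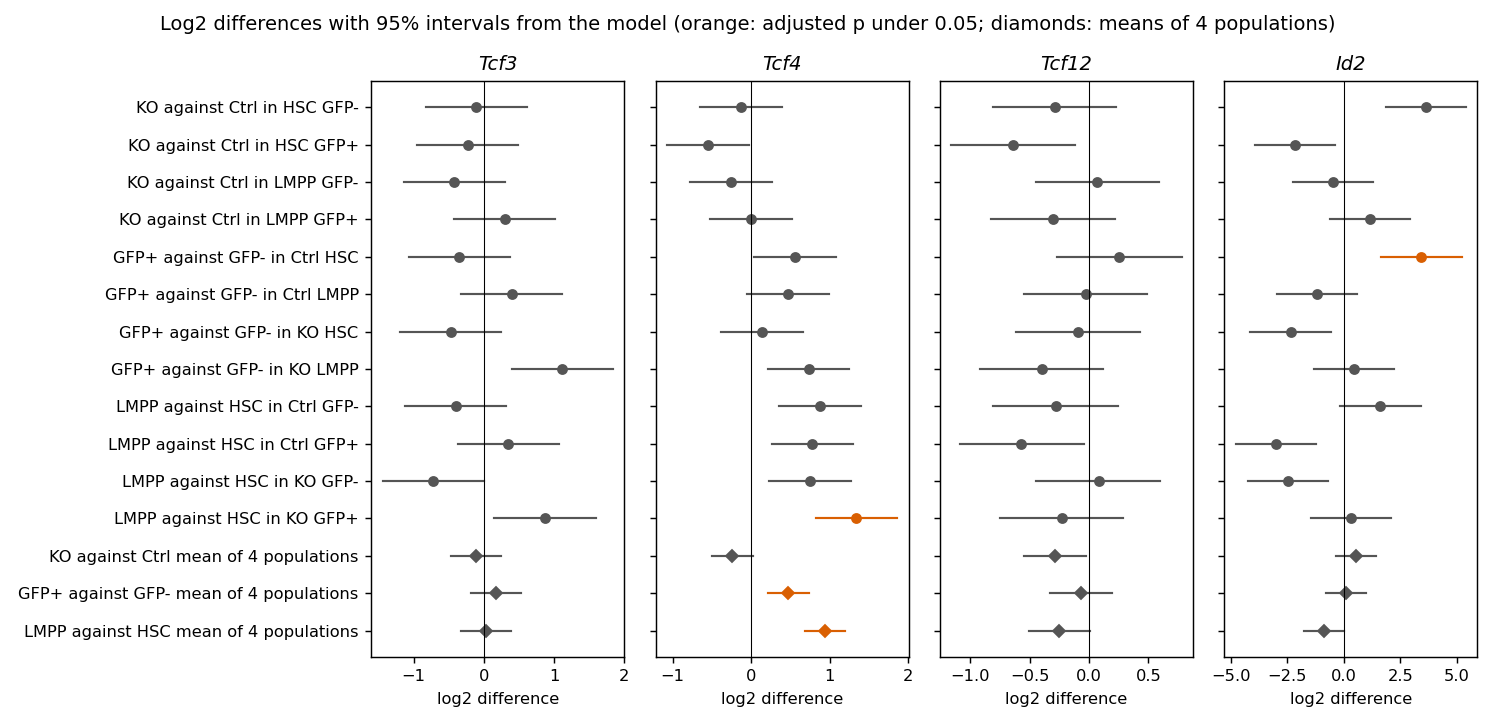
Log2 differences with 95% intervals from the linear model for the 4 members (1 panel each, with different axis ranges) in 12 comparisons of 2 groups and 3 averages over populations (diamonds). Orange marks an adjusted p under 0.05: Id2 for GFP in Ctrl HSC (3.42) and Tcf4 for LMPP against HSC in KO GFP-positive cells (1.34), for the average over GFP (0.47) and for the average over the gates (0.94).

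Counts of members whose libraries did not overlap were read against all genes. For Tal1 deletion they were 2 of 4 in HSC GFP-negative (12.7% of genes), 3 in HSC GFP-positive (14.3%), 0 in LMPP GFP-negative (10.8%) and 0 in LMPP GFP-positive cells (9.55%). For GFP they were 2 in Ctrl HSC (17.8%), 2 in Ctrl LMPP (14.8%), 0 in KO HSC (15.5%) and 3 in KO LMPP (19.1%). Between LMPP and HSC they were 3 in Ctrl GFP-negative (14.8%), 3 in Ctrl GFP-positive (14.3%), 2 in KO GFP-negative (22.3%) and 2 in KO GFP-positive cells (14.5%). With 4 members these counts are small numbers and no more than a description. For the differences of GFP effects between genotypes in LMPP no gene passed (0% of genes, with 531 at an unadjusted p under 0.05).

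Among lymphoid genes that E proteins are known to activate, 13 of 21 listed were tested. In GFP-positive cells, averaged, 9 of the 13 rose and 1 fell, with a median of 1.57 on the log2 scale against -0.14 over all genes; 7.23% of all genes passed this comparison, 346 rising and 826 falling. Rag2 is the reporter's own gene and its rise (3.65, adjusted p = 1.45e-09) repeats the sort. Dntt, which adds bases at antigen receptor joints, rose by 2.90 (SE 0.22, adjusted p = 3.44e-09), Il7r, the interleukin-7 receptor, by 4.29 (SE 0.42, 3.07e-07), and Notch1, the receptor that directs T lineage entry, by 1.57 (SE 0.14, 7.22e-08). Rag1 (1.85), Blnk, a B cell signalling adaptor (2.34), and 3 others also rose. The 1 that fell, named after its values were seen, was the forkhead factor Foxo1 (-0.88, adjusted p = 0.0397).

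In LMPP against HSC, averaged, 6 of the 13 rose and 1 fell (median 1.34 against 0.02 over all genes), where 4.18% of all genes passed, 400 rising and 277 falling. Dntt rose by 2.93 (SE 0.22, limma adjusted p = 5.17e-09), Notch1 by 1.78 (SE 0.14, 9.57e-09), Rag1 by 1.57, Blnk by 2.22, Rag2 by 1.34 and 1 other gene also. Hes1, a Notch target that represses, fell with a value of -1.74 (adjusted p = 0.000382). For Tal1 deletion, averaged, 0 of 13 passed in limma, with a median of -0.04 against 0.03 and 0.469% of all genes passing. By population 1 of 13 did: Hes1 in HSC GFP-negative cells (3.43, SE 0.58, adjusted p = 0.0082), at a mean of 49 in KO and 0.17 in Ctrl. Of all genes 0.16% passed in that population. With both libraries of low detection left out, this list had averaged counts of 9 rising and 1 falling for GFP, 7 and 1 for the gates, and 1 and 0 for Tal1 deletion. These counts stand without the share of all genes passing in that fit, which is not given here.

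Among genes of the TAL1 complex and other helix-loop-helix partners, 16 of 22 listed were tested. With GFP, averaged, 5 of the 16 fell and 0 rose (median -0.34 against -0.14 over all genes, of which 7.23% passed, 826 of them falling): Gata1 (-2.29, limma adjusted p = 0.000516) and Gata2 (-3.15, 0.000862), which are erythroid, mast and stem cell factors, Lmo2, the bridging protein of the complex (-0.61, 0.00128), Bhlhe40 (-2.17, 0.00272) and Tal1 itself (-1.57, 0.00576). By population the Tal1 difference passed only in KO LMPP (-3.13, limma adjusted p = 0.0222, 1.15% of genes passing), which includes a library of low detection. In Ctrl cells, where Tal1 was intact, it was -1.91 in HSC (0.149) and -0.64 in LMPP and did not pass. From HSC to LMPP 3 of the 16 fell and 0 rose (median -0.19 against 0.02; 4.18% of all genes passed, 277 of them falling), namely Gata1 (-2.54), Gata2 (-2.12) and Hes1 (-1.74). With Tal1 deletion, averaged, where 0.469% of all genes passed, 2 fell. Tal1 is the gene deleted, so its fall repeats the design. The other was Cbfa2t3, the corepressor ETO2 that joins the complex (-1.05, SE 0.17, limma adjusted p = 0.00204), at a mean of 578 in KO and 1220 in Ctrl. With both libraries of low detection left out, 7 fell with GFP, 5 fell in LMPP, and with Tal1 deletion 2 fell and 2 rose. The share of all genes passing in that fit is not given here, so these counts cannot be set against it.

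BMP and TGF-beta signalling, which is known to induce Id genes, was tested at 18 of 23 listed genes. With GFP, averaged, Eng, a co-receptor of the pathway, fell (-0.82, limma adjusted p = 0.0337) and 0 rose (median -0.34 against -0.14). At 7.23% of all genes passing, 1 of 18 is near the background and is no result about the list. Smad7, the inhibitory Smad, rose in LMPP (1.30, adjusted p = 0.0055) and the ligand Tgfb1 fell (-0.89, adjusted p = 0.0114), with a median of 0.24 against 0.02 and 4.18% of all genes passing. In Ctrl HSC, where 2.72% of all genes passed for GFP, Smad5 fell (-1.13, adjusted p = 0.0301) and no other gene of the list passed. In HSC GFP-negative cells 0 of the 18 passed for Tal1 deletion (median -0.23 against 0.02), where 0.16% of all genes passed. With both libraries of low detection left out, averaged counts were 3 falling for GFP, and 2 rising and 1 falling for the gates. Without the share of all genes passing in that fit, which is not given here, they are no result about the list.

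The genes whose levels followed each member most closely over the 24 libraries were found among 9767 genes by Spearman's rho, as a description in which libraries share groups, gates and depth. For Tcf4 they were Flt3 (0.94), which encodes the CD135 of the gate itself, Notch1 (0.92), Dntt (0.90), Il18rap, a chain of the interleukin-18 receptor (0.88), and Cdk19, a Mediator kinase (0.88). After each group's mean was taken away, rho was 0.49, 0.46, 0.33, 0.51 and 0.72. For Tcf3 the closest were Yeats4, Psmb7 and Cdc123 (0.81 each), Rad23b and Rps23 (0.79 each), which encode a chromatin reader, a proteasome subunit, a translation factor chaperone, a repair and proteasome shuttle and a ribosomal protein.

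For Tcf12 they were Acp6 (0.79), Snap23 (0.77), Bnip3 (0.76), Eya2 (0.76) and Tfec (0.75), and for Id2 they were Usp16 (0.75), Mdh2 (0.75), Abcc1 (0.72), Itm2b (0.71) and Rbl2 (0.70). After each group's mean was taken away, rho in the same order was 0.67, 0.63, 0.74, 0.64 and 0.04 for Tcf12. For Id2 it was 0.74, 0.63, 0.39, 0.48 and 0.60. Leaving both libraries of low detection out, the rho of the 5 genes closest to Tcf4 was between 0.87 and 0.94.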

How the data were processed

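RNA of sorted mouse bone marrow LSK cells was sequenced for 76 cycles from total RNA, per the labels' protocols. Per the submitters' processing notes, Trimmomatic 0.33, HTSeq 0.6.1 and edgeR (version not given) were used with mm10; the aligner and use of strand are not given in the sources used here, so reads of a gene and an overlapping or antisense gene cannot be told apart. What the authors deposited is a signal per gene, namely their normalised counts; 0.594% of values above 0 were within 0.001 of a whole number, so no count model was fitted. Of the 24 libraries 13 list no gene at 0.

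Genes with at least 1 ppm of the library total in at least 3 libraries were tested (16215). The analysis used log2(value + 4.10), the added amount being 0.5 ppm of the mean library total in normalised counts, which understates changes of low genes such as Id2. A model of 8 group means over 24 libraries was fitted with limma 3.58.1 in R 4.3.3 (trend on intensity; 16 degrees of freedom residual and 9.53 prior). Benjamini-Hochberg adjustment was made separately in 19 comparisons, and rose, fell or passed means an adjusted p below 0.05. Differences between groups averaged over populations weigh the 4 populations equally. Description numbers were tested with exact sign-flip and permutation tests, 12 in all. The model was also run on simulated data drawn from the real means and spreads, with independent noise in each library. Changes were set only in genes well above the added amount, so that run says nothing about genes as low as Id2. Nor does it bear on shared description numbers or libraries of low detection. Gene names came from GENCODE M21 for 16978 of 17149 identifiers.

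The members and the gene and marker lists were chosen with earlier results of these data known. Named genes were the members in every comparison, the 5 genes closest to each by Spearman's rho among named genes with a mean of at least 5 ppm, and up to 6 passing genes of each list by smallest p. Alternatives were 2 other pseudocounts, 2 other filters, rescaling, library weights, fits of only the groups compared, replicate blocks and libraries left out. The counts of list genes without the 2 libraries of low detection and the ratios of group means with 1 library left out were chosen after seeing the data.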

Additional observations from a re-analysis of the deposited data

Results flagged for a closer look

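Id2 was picked out because its differences went opposite ways in the libraries of the 2 genotypes. The GFP difference in HSC was higher in 3 of 3 Ctrl description numbers and lower in 3 of 3 KO description numbers, and the test of the difference between genotypes gave -5.77 (SE 1.22, limma adjusted p = 0.163), between -6.96 and -4.04 with adjusted p from 0.0402 to 0.659 over 22 alternatives. The difference between LMPP and HSC in GFP-negative cells did the same, with Ctrl shifts of 0.06, 2.15 and 2.63 and KO shifts of -2.73, -2.80 and -1.90, and its test gave -4.09 (SE 1.22, adjusted p = 1). The 2 results share the HSC GFP-negative libraries, so they are not separate observations.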

How the results depend on the processing

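Neither block changed a count of passing members. With the replicate number as a block Tcf4 for LMPP against HSC, averaged, was 0.94 (limma adjusted p = 2.62e-05) and Id2 for GFP in Ctrl HSC was 3.42 (0.0345), and with the description number as a block (estimated correlation 0.04) these were 0.94 (1.91e-05) and 3.42 (0.0252). Correlations of deviations from group means were -0.03 to 0.20 (median 0.06, 8 over 0.1) for the 36 pairs of libraries with 1 description number and -0.05 to 0.15 (median 0.03, 5 over 0.1) for the 48 pairs of other genotype with 1 replicate number, against a median of -0.02 and 1 over 0.1 for the 168 pairs of different replicate number. Pairs with 1 description number were thus over 0.1 more often than pairs of different replicate number, though not every pair was. The main model did not pair libraries by number, while the exact sign-flip tests and the block fit did use the numbers.

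Pseudocounts, filters and rescaling by trimmed mean factors changed no count of passing members. With array weights 1 member passed for Tal1 deletion in HSC GFP-negative cells (Id2), 0 for GFP in Ctrl HSC, 1 for GFP in KO LMPP (Tcf3, 0.98, limma adjusted p = 0.00647), 1 for LMPP against HSC in Ctrl GFP-negative (Tcf4) and 2 in KO GFP-negative cells (Tcf4 and Id2). Without both libraries of low detection the counts for Tal1 deletion in HSC GFP-negative cells, GFP in Ctrl HSC (Tcf4 and Id2) and LMPP against HSC in Ctrl and KO GFP-negative cells were 1, 2, 1 and 1. Fits of only the groups compared gave 0 for GFP in Ctrl HSC, 1 for LMPP against HSC in KO GFP-negative and 0 in KO GFP-positive cells. Leaving out 1 library gave 0 to 1 for Tal1 deletion in HSC GFP-negative cells, for GFP in Ctrl HSC, for LMPP against HSC in KO GFP-positive cells and for the difference of GFP effects in HSC. The shares of all genes passing in these fits are not given here, so these counts of members cannot be set against them. The cause of the changed counts was not tested.

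Signs turned, for values that did not pass, as follows. Rescaling gave 0.07 for Tcf12 (GFP, averaged) and -0.02 for Tcf3 (gates, averaged). Array weights gave Id2 -0.62 (GFP in KO LMPP), -0.68 (gates in KO GFP-positive) and -0.32 (GFP, averaged), Tcf3 -0.10 (gates, averaged) and Tcf4 -0.16 (difference of GFP effects in LMPP). Without both libraries of low detection these 5 were -0.46, -0.59, -0.24, -0.14 and -0.11, and in Ctrl cells Tcf3 was 0.22 (GFP in HSC) and -0.23 (gates in GFP-positive) and Tcf12 -0.03 (GFP in HSC). With 1 library left out Tcf3 ranged from -0.80 to 0.10 (Tal1 deletion in HSC GFP-positive), -0.23 to 0.12 (in HSC GFP-negative), -0.69 to 0.20 (difference of GFP effects in HSC), -0.68 to 0.22 (GFP in Ctrl HSC), -0.23 to 0.67 (gates in Ctrl GFP-positive) and -0.12 to 0.11 (gates, averaged). Tcf12 ranged from -0.03 to 0.42 (GFP in Ctrl HSC), -0.12 to 0.04 (GFP in Ctrl LMPP) and -0.02 to 0.16 (gates in KO GFP-negative). Id2 ranged from -0.14 to 0.22 (GFP, averaged), -0.80 to 0.11 (Tal1 deletion in LMPP GFP-negative), -0.46 to 0.98 (GFP in KO LMPP) and -0.59 to 0.85 (gates in KO GFP-positive), and Tcf4 from -0.11 to 0.46 (difference of GFP effects in LMPP).

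With 1 description number left out the Tcf4 shift was 0.40 to 0.54 for GFP and 0.88 to 1.01 for the gates, each with an exact p of 0.0625, the smallest that 5 numbers can give. The Tcf3 shift was -0.05 to 0.09 for the gates and -0.25 to 0.01 for Tal1 deletion, that of Tcf12 for GFP -0.15 to 0.01 and that of Id2 for GFP -0.28 to 0.52. Depth in reads is unknown, so no counting error could be given for Id2.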
